A study of Mus musculus with 27 samples.

Results

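The 10 genes Fkbp5, Tsc22d3, Zbtb16, Sgk1, Map3k6, Mt1, Mt2, Pdk4, Angptl4 and Hif3a are genes whose transcripts are known to rise when glucocorticoid, the stress hormone of the adrenal cortex, reaches a tissue. They were chosen by name, with earlier results of these data known, and are 10 of the 18194 genes measured. Each gene was read from its brightest probe set over all arrays. The RNA was from the lungs of female mice of the inbred strains C57L/J, C57BL/6J and CBA/J, 3 in all, which were 10 to 12 weeks old when the whole thorax received a single X-ray dose of 0 Gy (sham-irradiated), 12.5 Gy or 15 Gy. The lungs were taken 24 hours later. With 9 combinations of strain and dose, 3 mice in each and every mouse hybridized on its own without pooling, there were 27 arrays. Lead shields covered the unexposed regions, and RNA of high integrity was used. The comparisons ask whether the hormone response genes stood higher or lower a day after irradiation, whether the 3 strains and both doses differed, and whether the genes varied together between mice of the same group.

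Corticosterone, the main glucocorticoid of the mouse, crosses the cell membrane and binds the glucocorticoid receptor, which is held in the cytoplasm by heat shock proteins and co-chaperones. The bound receptor moves to the nucleus and activates genes next to its binding sites, among them genes that dampen the hormone signal itself, genes that restrain inflammation and genes of fuel use during fasting. Lung is rich in the receptor, and glucocorticoids are known for maturing the fetal lung and for quieting airway inflammation. The hormone also rises and falls with the time of day and with handling, so its target genes are known to differ between animals kept alike.

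Values are log2 intensities, so that a difference of 1 is a doubling, and differences are given with limma's standard error and with a p-value adjusted over all 18194 genes. A gene was said to rise or fall when that adjusted p was under 0.05. All 27 arrays carried lung RNA, with the mean of the lung epithelium markers between 13.31 and 13.97. On 9 arrays the mean of 10 skeletal muscle markers stood more than 1 log2 unit above the median array (8.40 to 14.70 against a median of 6.65): C57L/J 15 Gy replicate 3, CBA/J 0 Gy replicates 1 and 2, CBA/J 12.5 Gy replicates 2 and 3, C57BL/6J 12.5 Gy replicates 1 and 2, and C57BL/6J 15 Gy replicates 2 and 3. These were 2 of the 9 sham-irradiated and 7 of the 18 irradiated mice. On 8 arrays, 5 of them the same, the mean of the fat markers stood more than 1 log2 unit above the median (9.07 to 11.91 against 7.66), 1 of them from a sham-irradiated mouse, CBA/J replicate 3. In such bulk RNA fewer cells of a type and less RNA per cell cannot be told apart. One mouse stood apart in the hormone response genes themselves: the C57L/J sham-irradiated replicate 1 had the highest Fkbp5 (10.97), Tsc22d3 (13.31), Zbtb16 (12.39), Hif3a (9.35) and Map3k6 (9.94) of all 27 mice. The calls of the 10 genes in the pooled comparison and by strain are given with a value without these mice where it changes the call.

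With the 3 strains together, 4 of the 10 genes rose after irradiation and none fell: Zbtb16, Mt2, Fkbp5 and Sgk1. Over all genes 6.11% rose and 8.83% fell in the same comparison. The 10 changes, irradiated minus sham, ran from 0.10 for Hif3a to 1.13 for Zbtb16, all above 0, with a median of 0.55, while the median over all genes was -0.01 and 47.8% of all genes had a change above 0. Because the 10 genes were chosen with earlier results of these data known, these contrasts are no test of the list. As a check of the labels, 7 of 7 measured p53 target genes rose, led by Cdkn1a, the inhibitor of the cell cycle, by 3.16 ± 0.10 (SE). Markers of blood cells moved in the same comparison. Of the B cell markers 2 of 2 measured fell. Their mean was 9.70 to 10.58 (median 10.28) in sham-irradiated and 6.58 to 9.47 (median 8.32) in irradiated mice. Of the T cell markers 3 of 3 fell. Their mean was 7.44 to 8.94 (median 8.07) in sham-irradiated and 6.44 to 9.54 (median 6.99) in irradiated mice. The value of 9.54 was on C57L/J 15 Gy replicate 3, an array with muscle and fat markers. Of the neutrophil markers 2 of 3 rose, with their mean at 8.62 to 10.72 (median 9.79) in sham-irradiated and 8.73 to 12.79 (median 10.56) in irradiated mice. None of 6 squamous epithelium markers passed, and their mean was 7.06 to 12.12 on the 9 arrays with muscle markers and 4.90 to 6.03 on the other 18. The part of these cells in the levels of the 10 genes was not tested.

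**Figure D1:**
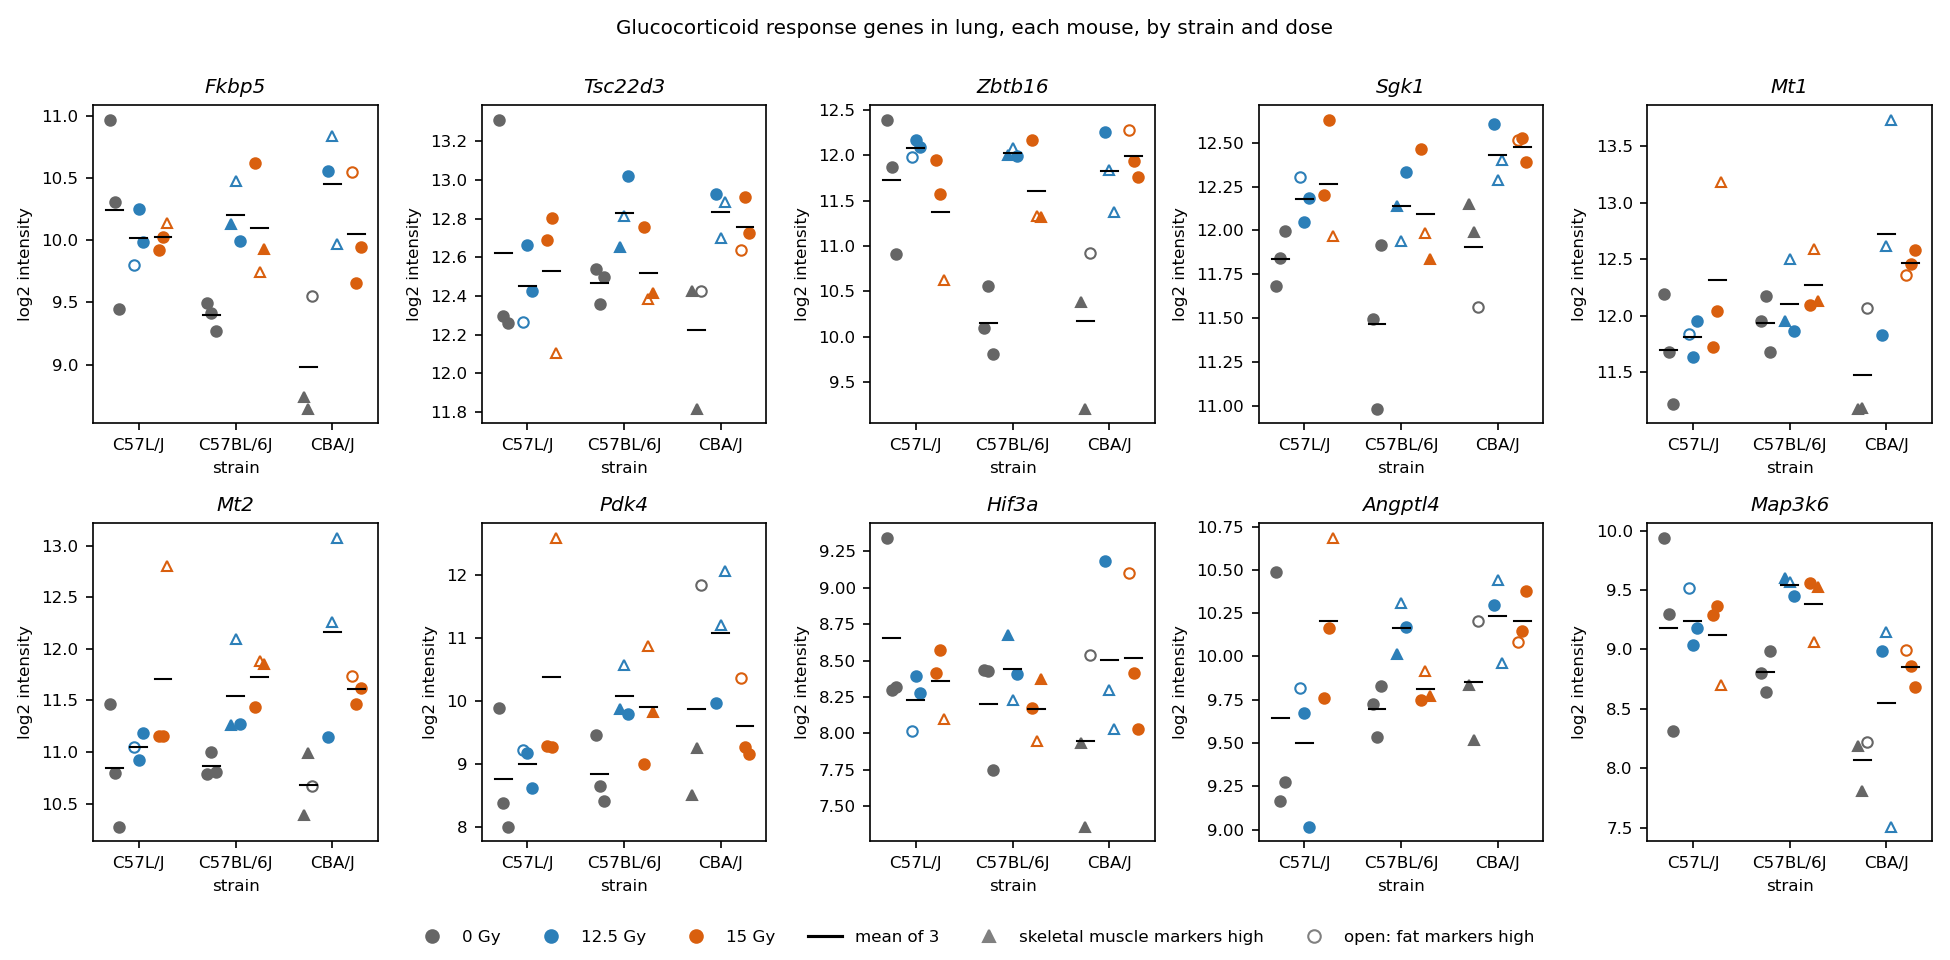
Log2 intensity (vertical axes, a separate scale for each gene) of the 10 genes in each of the 27 mice, by strain and dose; black lines are means of 3 mice, triangles are arrays with high skeletal muscle markers and open symbols arrays with high fat markers. In C57BL/6J and CBA/J the sham-irradiated mice lie below the irradiated mice in Zbtb16 and Fkbp5, while in C57L/J the sham-irradiated mice reach from the lowest to the highest values of the strain in Fkbp5, and the C57L/J sham-irradiated replicate 1 is the highest point in 5 panels.

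Zbtb16 encodes PLZF, a zinc finger transcription factor, and is among the genes most steeply induced by glucocorticoids in many cell types. It lies on chromosome 9 from 48651797 to 48836225 (GRCm38.p6). In C57BL/6J its log2 intensity was 10.10, 10.56 and 9.81 in the 3 sham-irradiated mice, 12.01, 12.08 and 12.00 after 12.5 Gy and 12.17, 11.33 and 11.32 after 15 Gy. In CBA/J it was 10.39, 9.21 and 10.92 in sham-irradiated mice, 12.26, 11.84 and 11.38 after 12.5 Gy and 12.28, 11.94 and 11.77 after 15 Gy. In both strains every irradiated mouse lay above every sham-irradiated mouse. In C57L/J it was 12.39, 11.87 and 10.92 in sham-irradiated mice, 11.99, 12.17 and 12.09 after 12.5 Gy and 11.95, 11.57 and 10.62 after 15 Gy, and the groups overlapped.

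Pooled over strains, Zbtb16 rose by 1.13 ± 0.26, which is 2.20-fold (adjusted p = 0.0033). In a fit of all 27 arrays that gives each strain its own change, it rose by 1.66 ± 0.37 in C57BL/6J (3.16-fold, adjusted p = 0.01) and by 1.74 ± 0.37 in CBA/J (3.33-fold, adjusted p = 0.00589), and the change in C57L/J was 0.00 ± 0.37 (adjusted p = 0.999). Its other probe sets gave pooled changes of 1.05 and 0.98 and correlated with the brightest one at 0.97 and 0.92 over the 27 arrays. Without the arrays with muscle markers, which leaves 1 of the 3 sham-irradiated CBA/J mice, the pooled rise was 0.94 (adjusted p = 0.0303). The change in C57BL/6J was then 1.93, with 12.5 Gy replicate 3 and 15 Gy replicate 1 as its only irradiated mice. The change in CBA/J was 1.14 and did not pass. Without the arrays with fat markers the pooled rise was 1.28 (adjusted p = 0.00578), and both strains' rises passed.

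Fkbp5 encodes FKBP51, the co-chaperone that lowers the receptor's affinity for its hormone and so closes a feedback loop. It lies on chromosome 17 from 28398753 to 28486149. In C57BL/6J its log2 intensity was 9.50, 9.42 and 9.27 in sham-irradiated mice, 10.13, 10.48 and 10.00 after 12.5 Gy and 10.62, 9.74 and 9.93 after 15 Gy. In CBA/J it was 8.74, 8.65 and 9.55 in sham-irradiated mice, 10.56, 10.84 and 9.97 after 12.5 Gy and 10.55, 9.66 and 9.95 after 15 Gy. As with Zbtb16, no irradiated mouse of either strain reached down to the sham-irradiated mice. In C57L/J it was 10.97, 10.31 and 9.44 in sham-irradiated mice, 9.80, 10.25 and 9.98 after 12.5 Gy and 9.92, 10.03 and 10.14 after 15 Gy, so that the irradiated mice lay inside the sham-irradiated range.

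The pooled rise of Fkbp5 was 0.60 ± 0.20, or 1.52-fold (adjusted p = 0.0409). None of the 10 genes rose in C57L/J, 2 rose in C57BL/6J and 2 in CBA/J, against 0.813%, 1.07% and 1.82% of all genes. Fkbp5 rose by 1.27 ± 0.28 in CBA/J (2.42-fold, adjusted p = 0.00828), while the change was 0.75 ± 0.28 in C57BL/6J (adjusted p = 0.15) and -0.22 ± 0.28 in C57L/J (adjusted p = 0.822). The pooled call was the least firm of the 4. It did not pass in 13 of 27 fits that left out 1 mouse (adjusted p from 0.00298 to 0.103), and it was 0.29 (adjusted p = 0.481) without the arrays with muscle markers, where the change in CBA/J was 0.62 and did not pass (adjusted p = 0.527). With the arrays high in fat markers left out, the pooled change was 0.57 (adjusted p = 0.115), nearly as large as with them, and that in CBA/J was 1.36 (adjusted p = 0.0475). With the fat marker mean as a covariate the pooled change was 0.55 (adjusted p = 0.0727). A dimmer probe set of Fkbp5 gave a pooled change of 0.53 and correlated with the brightest at 0.85, while the dimmest, with a mean log2 intensity of 2.27, gave -0.43 and correlated at -0.21.

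Tsc22d3 encodes GILZ, the glucocorticoid-induced leucine zipper, which restrains inflammatory transcription factors. Its values ran from 12.26 to 13.31 in the C57L/J sham-irradiated mice, where replicate 1 stood alone above 12.29, from 12.36 to 12.54 in C57BL/6J and from 11.82 to 12.43 in CBA/J. After irradiation they ran from 12.10 to 12.80 in C57L/J, from 12.39 to 13.02 in C57BL/6J and from 12.64 to 12.93 in CBA/J. The CBA/J groups did not overlap at either dose. The pooled change was 0.22 ± 0.13 (adjusted p = 0.275), and it was 0.34 (adjusted p = 0.0215) without C57L/J 0 Gy replicate 1, when the change in CBA/J, 0.58, also passed (adjusted p = 0.0462). A second probe set of Tsc22d3 gave a pooled change of 0.52 ± 0.15, with an adjusted p of 0.0259 over all probe sets, and correlated with the brightest at 0.78. The brightest probe set thus did not pass where the second did.

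Sgk1 encodes the serum and glucocorticoid regulated kinase, which stimulates epithelial sodium uptake. In C57BL/6J its log2 intensity was 11.50, 10.98 and 11.92 in sham-irradiated mice, 12.14, 11.94 and 12.33 after 12.5 Gy and 12.47, 11.98 and 11.84 after 15 Gy. In CBA/J it was 12.15, 11.99 and 11.56 in sham-irradiated mice, 12.61, 12.29 and 12.40 after 12.5 Gy and 12.52, 12.53 and 12.39 after 15 Gy. In C57L/J it was 11.68, 11.84 and 12.00 in sham-irradiated mice, 12.31, 12.05 and 12.19 after 12.5 Gy and 12.20, 12.63 and 11.97 after 15 Gy. Unlike the genes above, Sgk1 was higher after 12.5 Gy than in every sham-irradiated mouse of the same strain in all 3 strains. It had the smallest standard error of the 10 genes, and the pooled rise was 0.53 ± 0.10, or 1.44-fold (adjusted p = 0.000576). The changes by strain were 0.38 ± 0.18 in C57L/J (adjusted p = 0.353), 0.65 ± 0.18 in C57BL/6J (adjusted p = 0.0397) and 0.55 ± 0.18 in CBA/J (adjusted p = 0.0825). Without the arrays with muscle markers the pooled rise was 0.70 (adjusted p = 0.00281). The change in C57BL/6J was then 0.93, with 12.5 Gy replicate 3 and 15 Gy replicate 1 as its only irradiated mice. When the arrays with fat markers were left out, the change in C57BL/6J was 0.73 and did not pass (adjusted p = 0.0541).

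Promoter windows from RefSeq (GRCm38.p6), 250 bases before to 50 bases after each annotated start, were given for 8 of the 10 genes, 15 windows in all, and not for Zbtb16 and Angptl4. The palindromic binding site of the glucocorticoid receptor, spelled AGAACA and TGTTCT with any 3 bases between them, on either strand, was found in 1 of the 15, a window of Sgk1, and in 3 of 32851 windows of all genes (0.00913%). The site is shown because it is the full palindrome beside an alternative start inside the Sgk1 gene, with the match in capitals and 7 bases on each side, at chr10:21993694-21993722 on the plus strand:
Sgk1: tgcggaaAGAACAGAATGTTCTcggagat
That these letters were not found in the other windows says only that they are not within those 300 bases.

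Map3k6 encodes a mitogen-activated protein kinase kinase kinase of stress signalling. It read 8.80, 8.64 and 8.99 in the C57BL/6J sham-irradiated mice, 9.60, 9.57 and 9.45 after 12.5 Gy and 9.56, 9.06 and 9.52 after 15 Gy, with no overlap. In CBA/J it read 8.19, 7.81 and 8.22 in sham-irradiated mice, 8.99, 9.14 and 7.51 after 12.5 Gy and 8.99, 8.86 and 8.69 after 15 Gy, where the lowest value of all 27 mice came from the irradiated array with the most muscle RNA. In C57L/J the 3 sham-irradiated values, 9.94, 9.30 and 8.31, spanned the irradiated ones. The pooled change was 0.43 ± 0.18 (adjusted p = 0.11), with -0.00 ± 0.30 in C57L/J, 0.65 ± 0.30 in C57BL/6J and 0.63 ± 0.30 in CBA/J. It was 0.50 (adjusted p = 0.0249) without CBA/J 12.5 Gy replicate 3 and 0.57 (adjusted p = 0.0166) without C57L/J 0 Gy replicate 1.

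**Figure D2:**
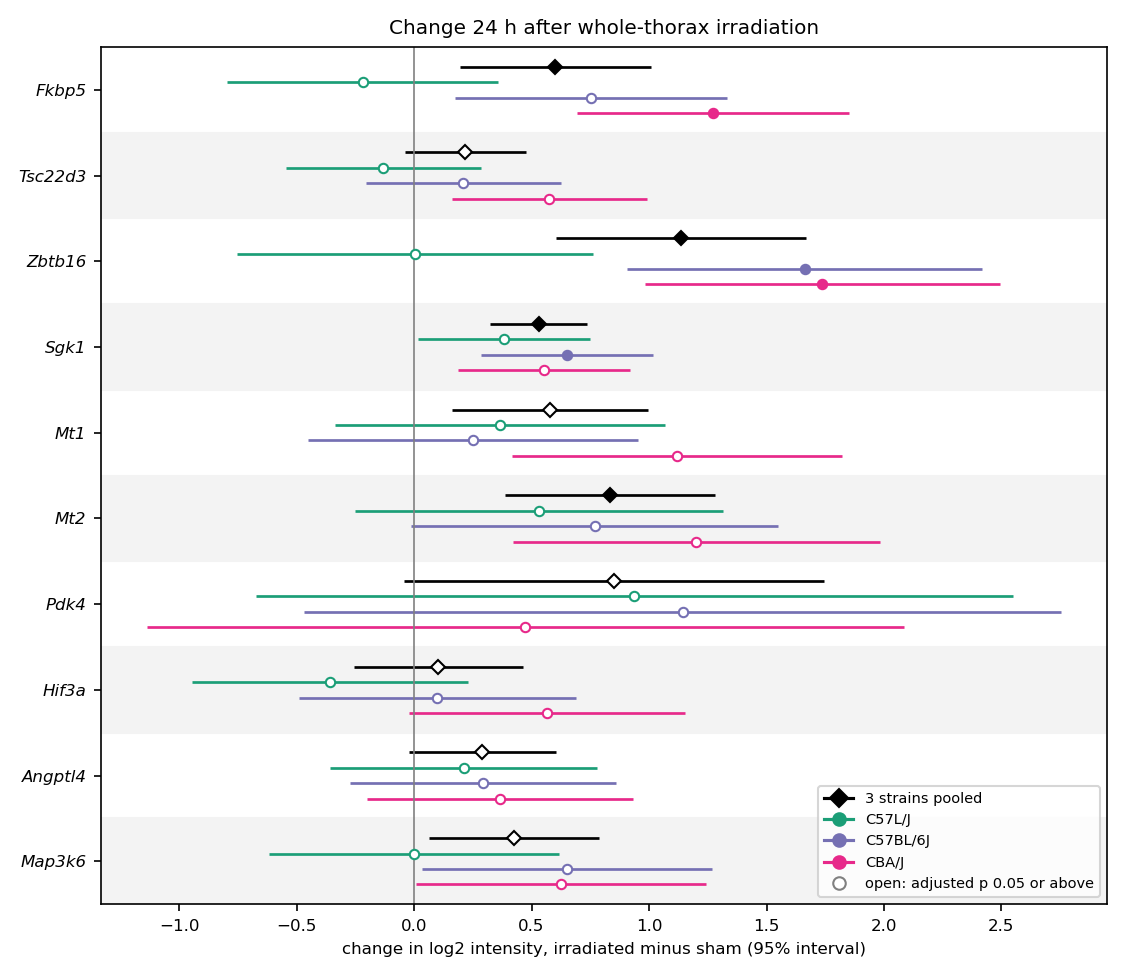
Change in log2 intensity by irradiation (horizontal axis, irradiated minus sham, with 95% intervals) of the 10 genes, for the 3 strains pooled (black diamonds) and in each strain (coloured points); filled symbols had an adjusted p under 0.05. The intervals of Zbtb16 lie clear of 0 in C57BL/6J and CBA/J and are centred on 0.00 in C57L/J, while those of Sgk1 lie above 0 in each strain.

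Mt1 and Mt2 encode the metallothioneins, small cysteine-rich proteins that bind zinc and copper and whose genes respond to metals as well as to glucocorticoids. They are neighbours on chromosome 8, Mt2 from 94172618 to 94173567 and Mt1 from 94178883 to 94180327. In C57BL/6J Mt2 read 10.79, 11.00 and 10.81 in sham-irradiated mice, 11.26, 12.09 and 11.27 after 12.5 Gy and 11.44, 11.88 and 11.85 after 15 Gy. In CBA/J it read 10.39, 10.99 and 10.67 in sham-irradiated mice, 11.15, 12.26 and 13.08 after 12.5 Gy and 11.74, 11.47 and 11.63 after 15 Gy. Both strains thus showed no overlap between sham-irradiated and irradiated mice at either dose. In C57L/J it read 11.46, 10.80 and 10.28 in sham-irradiated mice, 11.05, 10.93 and 11.18 after 12.5 Gy and 11.16, 11.16 and 12.80 after 15 Gy, with overlap.

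The pooled rise of Mt2 was 0.83 ± 0.22, or 1.78-fold (adjusted p = 0.00916). The changes by strain were 0.53 ± 0.38 in C57L/J, 0.77 ± 0.38 in C57BL/6J and 1.20 ± 0.38 in CBA/J, none with an adjusted p under 0.05. For Mt1 the pooled change was 0.58 ± 0.20 (adjusted p = 0.0556), with 0.37 ± 0.34 in C57L/J, 0.25 ± 0.34 in C57BL/6J and 1.12 ± 0.34 in CBA/J. The probe set of Mt1 matches more than 1 transcript, and a dimmer one gave 0.05 ± 0.24. Leaving out C57L/J 0 Gy replicate 1 gave Mt1 a pooled rise of 0.66 that passed (adjusted p = 0.0328), and leaving out the arrays with fat markers gave it a rise of 1.11 in CBA/J (adjusted p = 0.0321). The highest Mt1 and Mt2 of all mice, 13.73 and 13.08, were on the array with the most muscle RNA (CBA/J 12.5 Gy replicate 3), and the next, 13.18 and 12.80, on the array with the next most (C57L/J 15 Gy replicate 3). Without the arrays with muscle markers the pooled change of Mt2 was 0.44 (adjusted p = 0.0653) and that of Mt1 was 0.13 (adjusted p = 0.616). Leaving those arrays out keeps 1 sham-irradiated CBA/J mouse.

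The upstream sequence of the metallothioneins is shown for the short core of the metal response element, spelled TGCACNC or TGCGCNC on either strand, which is in capitals. The core was found in the windows of Mt1, Mt2, Hif3a and 1 window of Sgk1, and in 25.7% of all 32851 windows, so that finding it in a single window is common. The Mt2 window held 4 sites and that of Mt1 held 3, and 7.11% of all windows held 2 or more. The start used for the Mt1 window lies inside the annotated span of the gene, so the Mt1 stretch shown is within that span. The Mt2 sequence is the 250 bases before its start, chr8:94172368-94172617, and the Mt1 sequence is its 1 site upstream of the start with 7 bases on each side, chr8:94179059-94179079, both on the plus strand:
Mt2: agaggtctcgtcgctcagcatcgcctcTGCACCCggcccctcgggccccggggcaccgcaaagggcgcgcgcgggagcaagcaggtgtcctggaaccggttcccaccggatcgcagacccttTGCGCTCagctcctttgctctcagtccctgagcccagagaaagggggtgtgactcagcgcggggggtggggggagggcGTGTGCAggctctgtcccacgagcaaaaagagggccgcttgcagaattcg
Mt1: cccgctgTGCACACtggcgct
A match is a run of letters, and no binding was measured here.

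Pdk4 encodes the kinase that switches off pyruvate dehydrogenase during fasting, and Angptl4 a secreted inhibitor of lipoprotein lipase. Pdk4 varied more than the other 9 genes, with a standard deviation within groups of 1.09, above that of 92.15% of all genes. In C57L/J it read 9.89, 8.38 and 8.01 in sham-irradiated mice, 9.23, 9.17 and 8.63 after 12.5 Gy and 9.30, 9.28 and 12.59 after 15 Gy. In CBA/J it read 8.51, 9.25 and 11.84 in sham-irradiated mice, 9.97, 11.21 and 12.05 after 12.5 Gy and 10.37, 9.27 and 9.17 after 15 Gy. The 3 highest values, 12.59, 12.05 and 11.84, were on arrays high in fat markers, and 1 of these was from a sham-irradiated mouse without muscle markers. In C57BL/6J it read 9.47, 8.66 and 8.42 in sham-irradiated mice, 9.88, 10.56 and 9.79 after 12.5 Gy and 9.00, 10.88 and 9.82 after 15 Gy, with no overlap at 12.5 Gy. The pooled change of Pdk4 was 0.85 ± 0.43 (adjusted p = 0.21), 0.40 (adjusted p = 0.251) with the fat marker mean as a covariate and -0.10 (adjusted p = 0.907) without the arrays with muscle markers.

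Angptl4 ran from 9.16 to 10.49 in all sham-irradiated mice and from 9.02 to 10.69 in all irradiated mice. Its pooled change was 0.29 ± 0.15 (adjusted p = 0.223), with 0.21 to 0.37 in the 3 strains, and it passed at 0.41 (adjusted p = 0.0449) without C57L/J 0 Gy replicate 1. Hif3a, an inhibitory member of the hypoxia-inducible factor family, ran from 7.36 to 9.35 in sham-irradiated and from 7.95 to 9.19 in irradiated mice, with a pooled change of 0.10 ± 0.17 (adjusted p = 0.765). Its change was -0.36 ± 0.28 in C57L/J and 0.57 ± 0.28 in CBA/J, neither with an adjusted p under 0.05. Its 5 other probe sets were dimmer and correlated with the brightest between -0.0032 and 0.289.

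In pairs of groups, 1 change among the 10 genes and the 6 comparisons of a dose with sham passed: Zbtb16 in C57BL/6J after 12.5 Gy, by 1.87 ± 0.21, or 3.66-fold (adjusted p = 0.0387), where 0.121% of all genes rose. That call was lost in each of the 6 fits that left out 1 of its arrays, with a change of 1.70 to 2.08 and an adjusted p of 0.0876 to 0.169. In the other 5 comparisons limma called none of the 10. Of all genes 0.192% and 0% rose in C57L/J after 12.5 and 15 Gy, 0.044% in C57BL/6J after 15 Gy, and 0.011% and 0.418% in CBA/J after 12.5 and 15 Gy. Both doses of a strain were set against the same 3 sham-irradiated mice. In C57L/J 1 of the 10 genes lay above the sham-irradiated range without overlap after 12.5 Gy, against 9.78% of all genes, and 0 after 15 Gy, against 7.61%. In C57BL/6J the counts were 8 after 12.5 Gy, against 6.82% of all genes, and 4 after 15 Gy, against 8.92%. In CBA/J they were 5 after 12.5 Gy, against 7.56%, and 7 after 15 Gy, against 11.8%. In none of the 6 comparisons did any of the 10 genes lie below the sham-irradiated range. The share of all genes that did is not given here, so this count cannot be read as particular to them. With 3 mice against 3 an exact permutation test cannot go below p = 0.1.

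The test of whether the change differed among the strains called 0 genes in limma after adjustment, where an unadjusted p was under 0.05 for 5.28% and under 0.01 for 1.28% of all genes. Fkbp5 (unadjusted p = 0.00341) and Zbtb16 (unadjusted p = 0.00377) were among the latter, both with an adjusted p of 0.595 in limma. The change of Zbtb16 was larger than in C57L/J by 1.66 in C57BL/6J (95% interval 0.59 to 2.73) and by 1.73 in CBA/J (0.67 to 2.80), and that of Fkbp5 by 0.97 (0.16 to 1.79) and by 1.49 (0.68 to 2.31). Between CBA/J and C57BL/6J the differences were 0.08 (-0.99 to 1.14) for Zbtb16 and 0.52 (-0.30 to 1.34) for Fkbp5. Each of these differences rests on 3 sham-irradiated mice per strain, and 2 of those of CBA/J were arrays with muscle markers. Without the arrays with muscle markers, which leaves 1 sham-irradiated CBA/J mouse, the difference of CBA/J from C57L/J was 0.91 for Zbtb16 and 0.87 for Fkbp5. That of C57BL/6J from C57L/J was 1.70 and 1.15, with 12.5 Gy replicate 3 and 15 Gy replicate 1 as the only irradiated C57BL/6J mice. Without C57L/J 0 Gy replicate 1 the unadjusted p was 0.0263 for Fkbp5 and 0.031 for Zbtb16, and the C57L/J changes became 0.14 and 0.34. For Sgk1 the largest difference between strains was 0.27 (-0.25 to 0.79), and for Mt2 it was 0.67 (-0.44 to 1.77).

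The sham-irradiated mice of the 3 strains were compared as the baseline, and limma called none of the 10 genes in C57BL/6J against C57L/J, CBA/J against C57L/J or CBA/J against C57BL/6J, where it called 0.17%, 1.52% and 1.09% of all genes. At an unadjusted p under 0.05 it called 1, 3 and 1 of the 10, against 8.68%, 15.9% and 11.4% of all genes. Zbtb16 averaged 11.73 ± 0.75 (SD, n = 3) in C57L/J, 10.16 ± 0.38 in C57BL/6J and 10.17 ± 0.88 in CBA/J. The 3 C57BL/6J mice lay below the 3 C57L/J mice, with a difference of -1.57 ± 0.42 (adjusted p = 0.387). Fkbp5 averaged 10.24 ± 0.76 in C57L/J, 9.40 ± 0.11 in C57BL/6J and 8.98 ± 0.50 in CBA/J. When the spread was estimated from all 27 arrays, CBA/J was lower than C57L/J in both genes, by -1.56 (adjusted p = 0.0378) and -1.26 (adjusted p = 0.0375). The sham-irradiated CBA/J replicates 1 and 2 were arrays with muscle markers. They had Zbtb16 of 10.39 and 9.21 and Fkbp5 of 8.74 and 8.65. Replicate 3, an array with fat markers, had 10.92 and 9.55. Neither call was kept without the arrays with muscle markers. After irradiation the strain means of Zbtb16 lay closer, between 11.73 and 11.91, and those of Fkbp5 between 10.02 and 10.25.

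Between 15 and 12.5 Gy none of the 10 genes differed, with the 3 strains pooled or within a strain, and limma called 0 of all genes in each of these 4 comparisons. At an unadjusted p under 0.05 it called 0 of the 10 in the pooled comparison, against 3.78% of all genes. Within C57L/J, C57BL/6J and CBA/J it called 0, 1 (Angptl4, by -0.36) and 0 of the 10, against 3.15%, 3.17% and 6.87%. The pooled differences, 15 minus 12.5 Gy, ran from -0.32 ± 0.19 for Zbtb16 to 0.14 ± 0.24 for Mt1. In C57L/J the 3 values of Zbtb16 after 15 Gy, 10.62 to 11.95, lay below the 3 after 12.5 Gy, 11.99 to 12.17, and the lowest of them was on the array with muscle markers.

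Other genes of the pathway moved in both directions in the pooled comparison. Of 25 other genes known to be induced by glucocorticoids 7 rose, 2 fell and 16 did not pass, with a median change of 0.16. Of all genes 6.11% rose and 8.83% fell, the shares to set beside each list here and below. Ddit4, the inhibitor of mTOR signalling known as REDD1, rose by 1.09 ± 0.12 and Lcn2, an iron-binding lipocalin that neutrophils also carry, by 0.98 ± 0.15, and Klf15, a transcription factor of amino acid breakdown, by 0.53 ± 0.14. Rgs2, a regulator of G protein signalling, fell by 0.92 ± 0.08. Per1, Dusp1 and Nfkbia, which glucocorticoids induce in many tissues, had changes of -0.02, -0.11 and -0.10 and did not pass. Several of these genes are also known to respond to p53, metals, infection or fasting, and membership of the list does not say which signal moved them.

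The receptor itself, Nr3c1, had a change of -0.08 ± 0.08 (adjusted p = 0.593), and the mineralocorticoid receptor Nr3c2 one of -0.00 ± 0.09. Of 9 measured genes of receptors, chaperones and steroid metabolism 2 rose, the chaperone Hsp90aa1 by 0.24 ± 0.07 and its co-chaperone Stip1 by 0.36 ± 0.07, and the enzymes that reactivate and inactivate corticosterone, Hsd11b1 and Hsd11b2, had changes of -0.01 and -0.30 that did not pass. Of 8 other metal-responsive genes 3 rose: Mt3, another metallothionein, by 1.38 ± 0.36 from a dim level, Gclc, the catalytic subunit of glutathione synthesis, by 0.58 ± 0.12 and the zinc importer Slc39a14 by 0.55 ± 0.09. Of 16 measured fasting and PPAR target genes 1 rose and 2 fell, with Cpt1a, the gatekeeper of fatty acid import into mitochondria, lower by -0.37 ± 0.07, Foxo1 by -0.30 ± 0.07 and Foxo3 higher by 0.37 ± 0.12. Of 12 hypoxia genes 1 fell, Ankrd37, by 0.53 ± 0.13. The counts of the fasting and hypoxia lists are near the shares of all genes, 6.11% risen and 8.83% fallen.

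Of 12 circadian clock genes 3 rose and 5 fell. Dbp, an output factor of the clock, fell by 1.06 ± 0.17, Ciart by 0.62 ± 0.12 and Nr1d1, the repressor REV-ERB alpha, by 0.56 ± 0.13. Npas2 rose by 0.83 ± 0.22, Bmal1 by 0.79 ± 0.16 and Clock by 0.34 ± 0.09, the genes of the activating arm. By strain, the median change of the 12 genes after 12.5 and 15 Gy was -0.54 and -0.67 in C57L/J. It was -0.01 and -0.14 in C57BL/6J and -0.15 and -0.19 in CBA/J. The median over all genes was -0.03 to 0.01 in these comparisons. Whether the strains differed in this list was not tested. The clock hour of lung collection was not found in the labels or methods, and its part in any of these values was not tested.

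**Figure D3:**
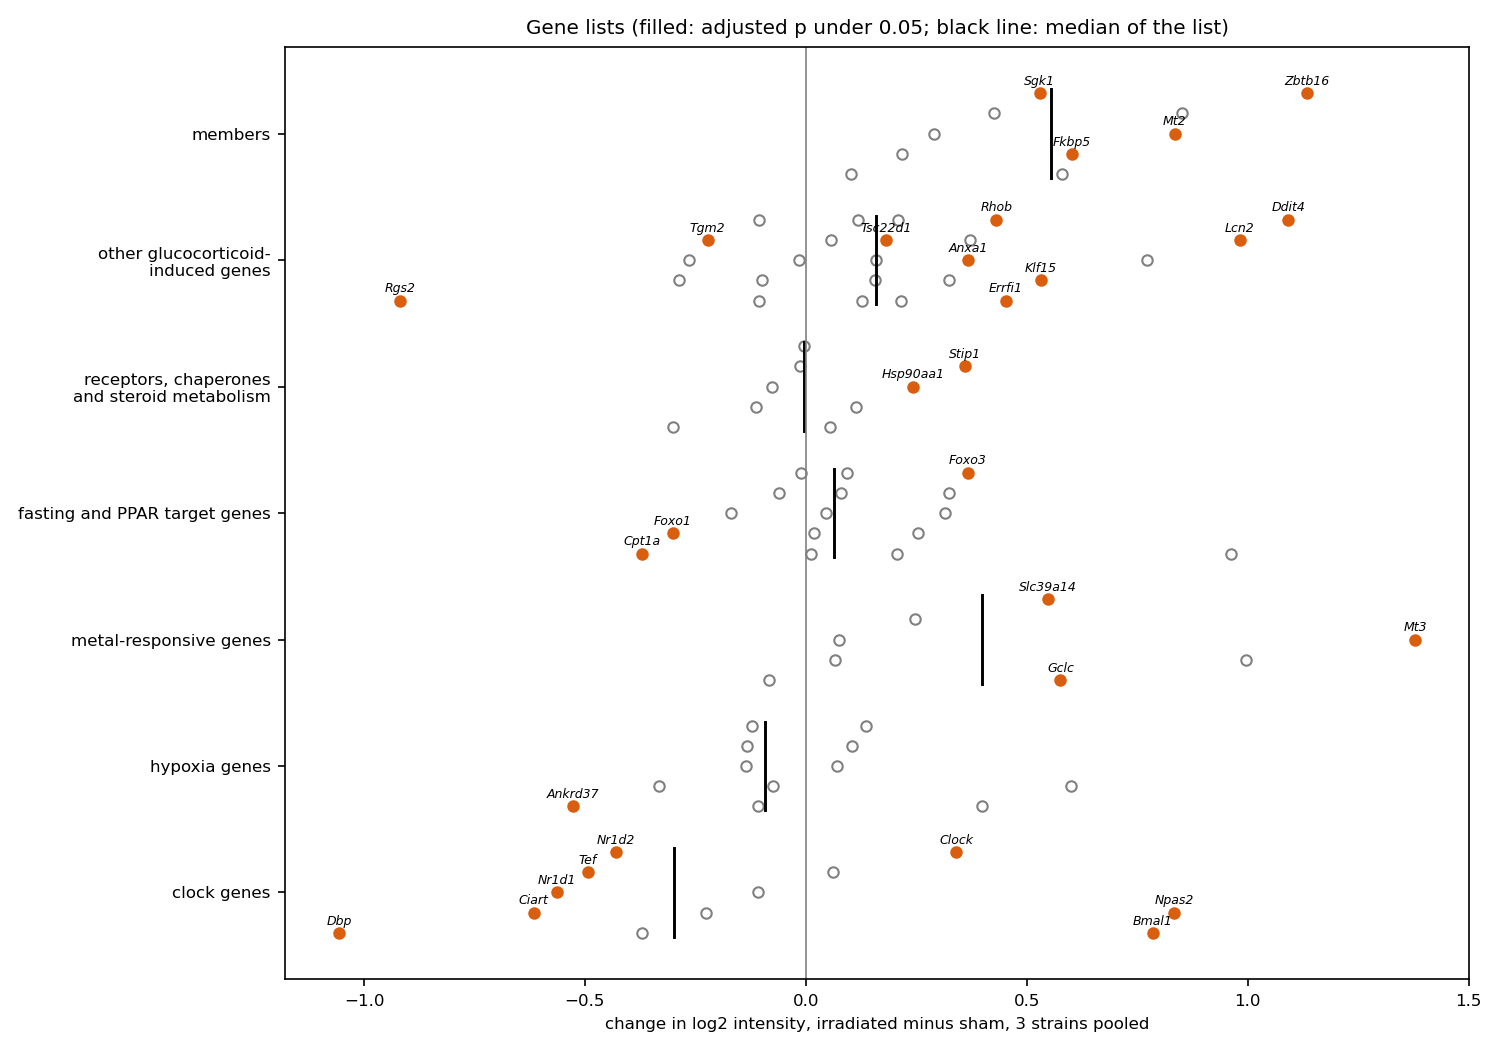
Change in log2 intensity by irradiation (horizontal axis, 3 strains pooled) of each measured gene of the 10 members and 6 other lists; filled points had an adjusted p under 0.05 and the black line is the median of a list. The median is 0.55 for the 10 genes, 0.16 for the other glucocorticoid-induced genes and -0.30 for the clock genes.

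Over all 27 mice the 10 genes fell into separate sets that varied together within groups of the same strain and dose. This division was not seen without the arrays with muscle markers, and it was kept in part without those with fat markers. Each value was taken as its deviation from the mean of its 3 mice, and the 45 pairs of genes were correlated over the 27 mice, with p-values from 100000 permutations within groups adjusted over the 45 pairs. In 9 pairs the adjusted p was under 0.05, 6 positive and 3 negative, and the median correlation was 0.18. The same count was not made for pairs of other genes, so 9 of 45 cannot be read as particular to these genes. All genes of a mouse share its array and the tissue composition of its lobe.

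One set held Zbtb16 with Fkbp5 (r = 0.68, rho = 0.66, adjusted p = 0.0347 by permutation), with Hif3a (r = 0.73, rho = 0.72, adjusted p = 0.0182) and with Map3k6 (r = 0.65, rho = 0.61, adjusted p = 0.0347). When the 2 mice farthest from the median were left out, r was 0.57, 0.69 and 0.58. The correlation of Tsc22d3 with Zbtb16 was 0.69 (adjusted p = 0.0512). The r of Zbtb16 with Fkbp5 was 0.64 within the 9 C57L/J mice, 0.76 within C57BL/6J and 0.70 within CBA/J.

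The other set held Mt1 with Mt2 (r = 0.88, rho = 0.79, adjusted p = 0.0187), Mt1 with Pdk4 (r = 0.82, rho = 0.82, adjusted p = 0.0175) and Mt2 with Pdk4 (r = 0.735, rho = 0.70, adjusted p = 0.0295), with r of 0.79, 0.78 and 0.63 without the 2 farthest mice. Sgk1 ran against all 3 of them, with r = -0.56 to Mt1 (rho = -0.66, adjusted p = 0.0347), r = -0.51 to Mt2 (rho = -0.62, adjusted p = 0.0347) and r = -0.61 to Pdk4 (rho = -0.66, adjusted p = 0.0395). With each array centred on its median none of these 3 negative pairs passed (r = -0.44, -0.41 and -0.63, adjusted p = 0.128, 0.128 and 0.0665 by permutation). Nor did Mt2 with Pdk4 (adjusted p = 0.0513 by permutation). The division into sets was not seen without the arrays with muscle markers and was kept in part without those with fat markers. The reason was not tested. In 14 mice of groups that kept more than 1 mouse without muscle markers, all 36 pairs that leave out Sgk1 were positive. Their r ran from 0.31 to 0.86, while 25 of 36 were positive in the 27 mice. These 14 mice were of the C57L/J groups, CBA/J 15 Gy and C57BL/6J 0 Gy, so the mix of strains and doses changed too. They kept C57L/J 0 Gy replicate 1, the highest of its group in each gene other than Sgk1. The weight of this mouse was not tested. Pairs across the sets moved most: the r of Zbtb16 with Mt2 went from -0.33 to 0.85, that of Map3k6 with Mt2 from -0.28 to 0.85, that of Fkbp5 with Mt2 from 0.15 to 0.84 and that of Hif3a with Pdk4 from 0.14 to 0.84. Within the sets, Mt1 with Mt2 was at 0.86 and Zbtb16 with Fkbp5 at 0.83. In 18 mice without high fat markers all 36 pairs were positive as well. There the r of Zbtb16 was 0.24 with Mt2 and 0.20 with Pdk4, against 0.76 with Fkbp5, and Mt2 with Pdk4 was at 0.75. Other pairs across the sets were higher, such as Fkbp5 with Mt1 at 0.73. None of the 45 pairs passed in either of these smaller sets of mice.

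**Figure D4:**
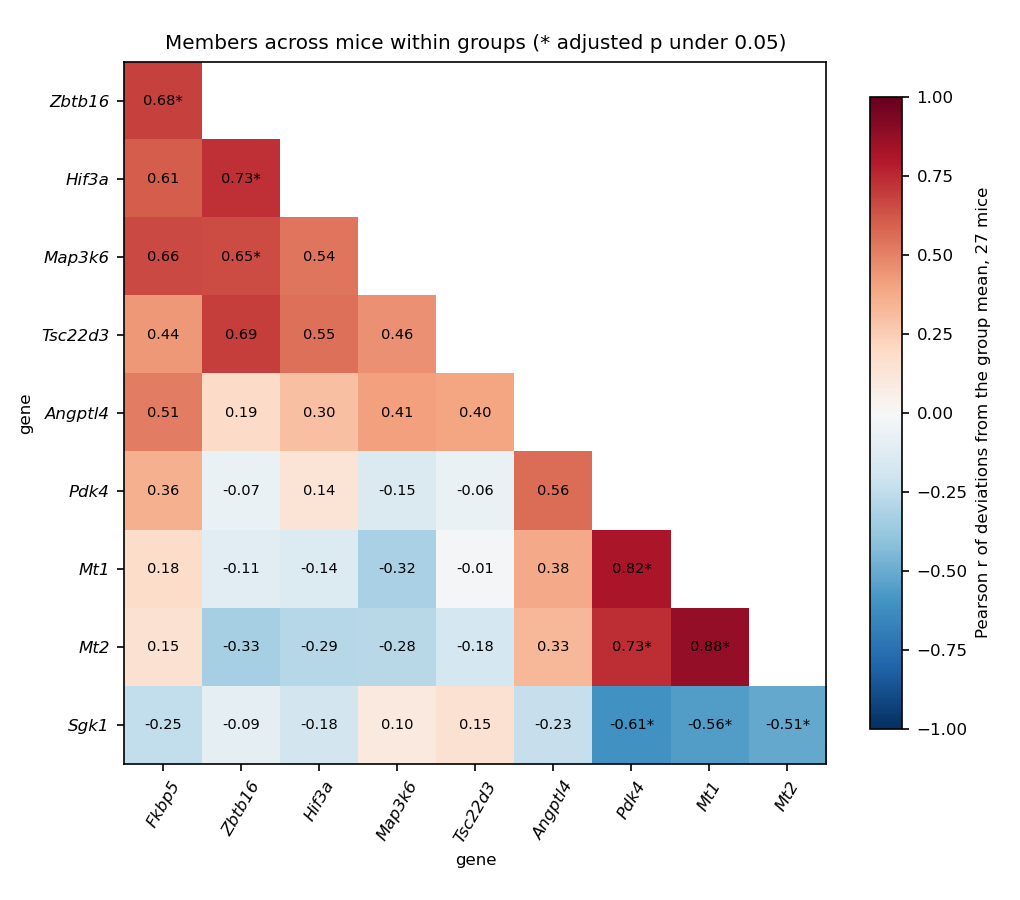
Pearson correlation (colour and printed value) of each pair of the 10 genes over 27 mice, computed on deviations from the mean of each group; an asterisk marks an adjusted p under 0.05. Warm squares join Fkbp5, Zbtb16, Hif3a, Map3k6 and Tsc22d3 at the upper left and Pdk4, Mt1 and Mt2 at the lower right, and Sgk1 is negative with the latter 3. The arrays with muscle and fat markers are included, without which all 36 pairs that leave out Sgk1 were positive.

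The markers of tissue outside the lung moved with the second set. Across the 27 mice, on the same deviations, Pdk4 followed the fat marker mean at r = 0.90 (rho = 0.85, permutation p = 1e-05, the smallest that 100000 permutations can give, adjusted p = 0.0002 over 20 relations), and r was 0.85 without the 2 farthest mice. Mt2 followed the muscle marker mean at r = 0.85 (rho = 0.72, adjusted p = 0.0108 by permutation) and the fat marker mean at r = 0.64 (rho = 0.70, adjusted p = 0.00473). Mt1 followed the fat marker mean at r = 0.66 (rho = 0.68, adjusted p = 0.00473 by permutation). Zbtb16 ran against the muscle marker mean, with r = -0.61 (rho = -0.47, adjusted p = 0.0154 by permutation, 0.137 for rho), and Hif3a likewise with r = -0.46 (rho = -0.34, adjusted p = 0.0484 by permutation, 0.172 for rho). For Fkbp5, Tsc22d3, Angptl4 and Map3k6 neither relation passed. Sgk1 ran against the fat marker mean at r = -0.52 (adjusted p = 0.0548 by permutation), and its rho of -0.60 passed (adjusted p = 0.0282). The part of this other tissue in the level of any of the genes was not tested beyond the fits without those arrays.

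**Figure D5:**
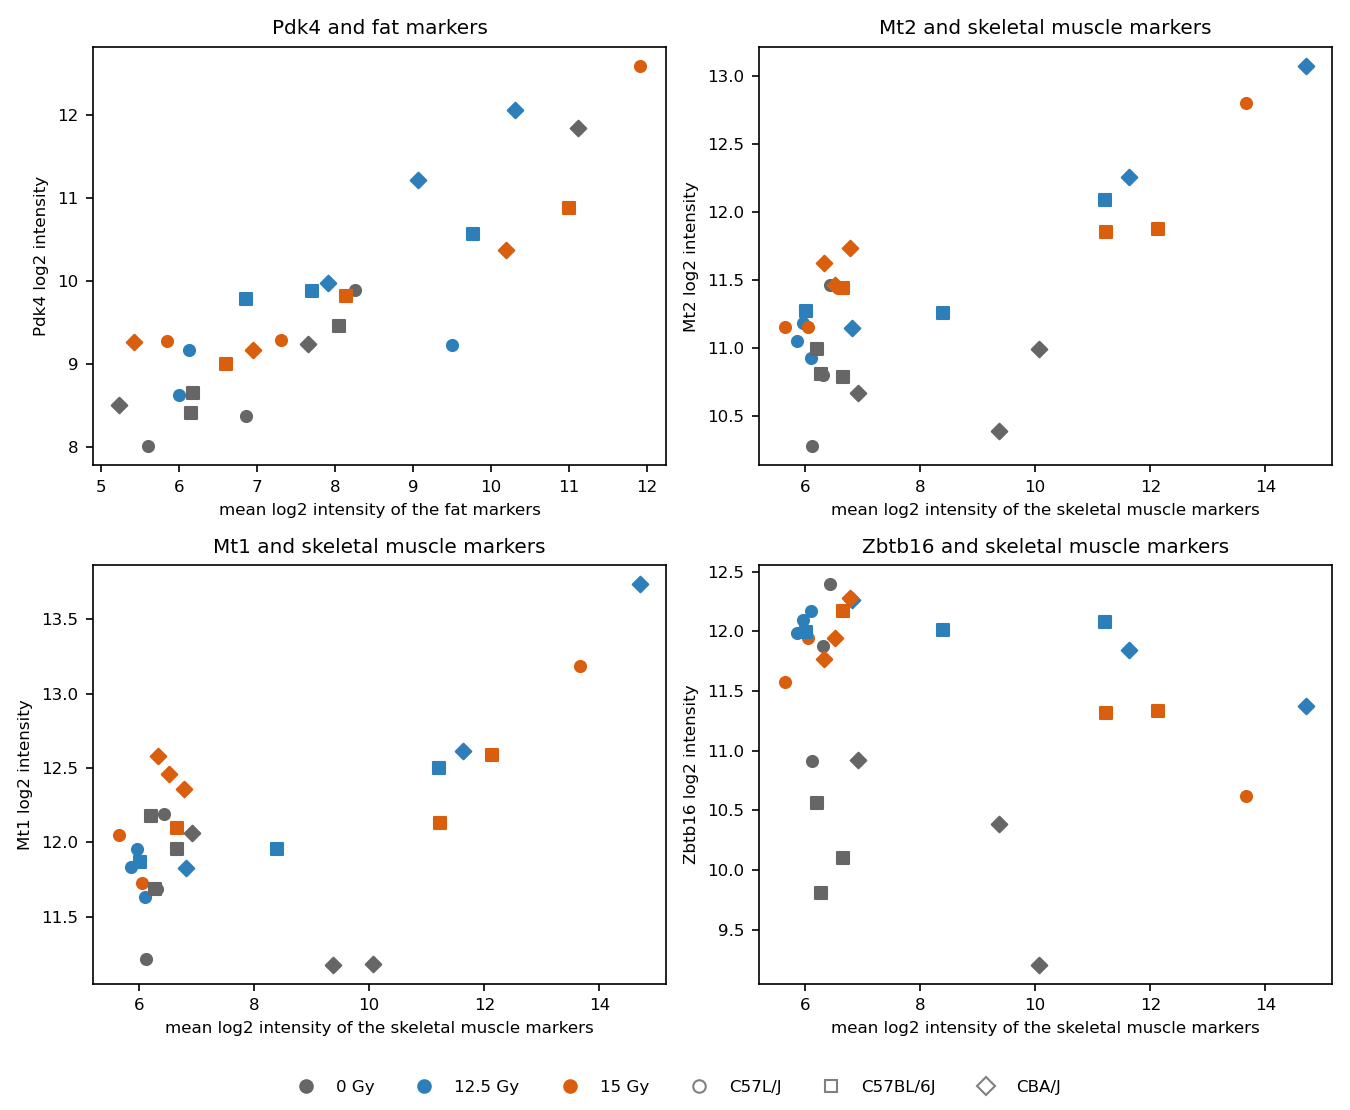
Log2 intensity of Pdk4 against the mean of the fat markers, and of Mt2, Mt1 and Zbtb16 against the mean of the skeletal muscle markers (all axes in log2 intensity), with 1 point per mouse, coloured by dose and shaped by strain. Pdk4 climbs with the fat markers in sham-irradiated as in irradiated mice. The arrays with a muscle marker mean above 11 have Mt2 of 11.85 and higher, and all of them are from irradiated mice. The sham-irradiated arrays with muscle markers, CBA/J replicates 1 and 2, have Mt2 of 10.39 and 10.99.

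The genes whose pattern across the 27 mice was most like each of the 10, by the correlation of the same deviations over all 18194 genes, were taken with the arrays of muscle and fat markers included. Closest to Tsc22d3 was Cebpd, another glucocorticoid-induced transcription factor, at 0.85. Closest to Zbtb16 were Bcl2l1 and Fam107a, both at 0.82, to Map3k6 Xdh and Sult1a1 at 0.86 and 0.84, and to Fkbp5 Slc26a4 at 0.78. Closest to Pdk4 were Etfdh, Bckdhb and Acacb at 0.96, all enzymes of fuel use in mitochondria or lipid synthesis. Closest to Mt2 were Gpc1, Asb11 and Eef1a2 at 0.94, and to Mt1 Gatd3a, Chchd10 and Cox4i1 at 0.93 to 0.94. Closest to Sgk1 was Psma2 at 0.86, to Hif3a Zfp446 at 0.85 and to Angptl4 Cd209d at 0.80.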

How the data were processed

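The authors hybridized lung RNA of single mice to Affymetrix mouse arrays and deposited linear intensity values for 45101 probe sets, made with Affymetrix Expression Console 1.1 per the submitters' processing notes. The 2% trimmed mean was 500 on each array, and no source used here names the summary algorithm. The median intensity was 127.6 to 167 and 14.0% to 19.3% of values lay below 32. The number of arrays limits the precision.

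Intensities were floored at 1 and taken to log2. Probe sets with 1 gene symbol (34958) gave 18194 genes, each read from its brightest probe set; 932 with several symbols and 9211 with none were left out. Groups were compared in R 4.3.3 with limma 3.58.1 (lmFit, eBayes) and Benjamini-Hochberg adjustment: pairs of groups on their 6 arrays, irradiated against sham on 27 arrays with strain as covariate, and strain by irradiation as an F test. Correlations used numpy 2.4.6 and 100000 permutations within groups (random seed 1). The scripts were tested on simulated data.

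The 10 members, the gene and marker lists and the alternatives were chosen with earlier results of these data known. The text names the 10 members, up to 4 genes of each other list with the largest called changes, the genes most like each member, and, chosen after their values were seen, Per1, Dusp1, Nfkbia, Nr3c1, Nr3c2, Hsd11b1, Hsd11b2, Clock and Nr1d1. Alternatives were quantile normalization, median-centring, a floor of 32, a filter on dim genes, the mean or the most variable probe set, an intensity trend with a robust prior, the methods' random variance test, all arrays in 1 fit, leaving out each array, a block for the replicate number, and muscle markers as a filter or covariate. The same with fat markers was added after seeing the data. The correlations between arrays with the same replicate number ran from -0.0728 to 0.249, and in none of the 9 comparisons were all above 0.1. They were 0.0188 to 0.0387 in C57L/J and 0.0839 to 0.249 in CBA/J for 12.5 against 0 Gy. In both of these comparisons each array correlated best with its own number. Promoter sequences are RefSeq's.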

Additional observations from a re-analysis of the deposited data

Results flagged for a closer look

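In Fkbp5 and Zbtb16 the change by irradiation differed among the 3 strains with an unadjusted p of 0.00341 and 0.00377 in limma's interaction test, and neither passed after adjustment over all genes (adjusted p = 0.595 for both, and 0.218 to 1 and 0.324 to 1 when 1 mouse was left out). In Zbtb16 all 12 irradiated mice of C57BL/6J and CBA/J were above their strain's sham-irradiated mice, against overlap in C57L/J. Without the arrays with muscle markers the unadjusted p was 0.063 for Fkbp5 and 0.00563 for Zbtb16 in limma.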

How the results depend on the processing

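Counts below are calls among the 10 genes at an adjusted p under 0.05 by limma, unless stated. Calls over all genes under each alternative are not given beside them. A shift in a count thus cannot be read as particular to these genes. With the strains pooled the count was 4, and 2 without the arrays with muscle markers. Leaving out 1 array at a time gave 3 to 8, with 8 without C57L/J 0 Gy replicate 1, when Tsc22d3, Mt1, Angptl4 and Map3k6 also passed. Zbtb16, Mt2 and Sgk1 passed in each of these 27 fits. For the doses against sham within strains the count was 1, against 7 with an intensity trend and robust prior, 4 with all arrays in one fit, and 0 with the most variable probe set, without the muscle arrays and with the muscle marker mean as covariate (0 to 1 leaving out 1 array, with 0 in each of the 6 fits that left out an array of the called pair). The strain by irradiation count, the counts of 15 against 12.5 Gy and, leaving out 1 array, the sham-irradiated strains' count stayed at 0. Between sham-irradiated strains the count was 0, against 1 without the muscle arrays (Pdk4, CBA/J over C57L/J, on 1 CBA/J mouse) and 2 with all arrays in one fit. Of the 45 gene pairs 9 were called, against 5 with median-centring and 0 without the muscle arrays or the arrays high in fat markers. The pooled change of Fkbp5 was -0.43 (adjusted p = 0.717) in its most variable probe set, which is also its dimmest. The random variance test called 9 changes at an unadjusted p under 0.01 for the doses against sham, as did limma.

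With the replicate number as a block the count within strains was 0 (Zbtb16 in C57BL/6J after 12.5 Gy, adjusted p = 0.222), and in the pooled comparison Fkbp5 was lost (0.0722) and Mt1 gained (0.0432). Each array correlated best with its own number in 2 of 9 comparisons. Of 1650 values for single genes under the alternatives other than leaving out an array, 1622 stayed on the same side of the threshold. A change of sign between values that did not pass, as in Pdk4 without the muscle arrays, was not counted as a shift. The causes of these shifts were not tested. Dim probe sets, such as those of Hif3a, limit what their values can show.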
